A study of Mus musculus with 160 samples.

Results

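The SJL quadriceps libraries are 8 RNA sequencing libraries of thigh muscle from 8 male mice of the inbred strain SJL, chosen by their strain and tissue labels out of 160 libraries in the series. They were compared with 8 libraries from C57BL/6J mice and 8 from DBA/2J mice, together called the controls, so that 24 quadriceps libraries entered the fit, each from a different mouse. The mice ate chow until 12 weeks of age and then, for 6 weeks, 1 of 4 diets modelled on human ones and called American, Mediterranean, vegetarian and vegan, and muscle was taken at 18 weeks of age. Each strain had 2 mice on each diet. The strain A/J, which carries a dysferlin defect of its own, was not used as a control. Per the study's design text, reads of SJL and DBA/2J were aligned with a relaxed mismatch penalty and those of C57BL/6J were not, so in the comparison of SJL with C57BL/6J the strain and the aligner setting cannot be told apart.

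Dysferlin, the product of Dysf, is a membrane protein of muscle fibres that takes part in resealing the sarcolemma after contraction tears it. SJL mice are homozygous for a splice-site mutation in Dysf that removes an exon from the transcript in frame and leaves little dysferlin protein. They develop a slowly progressing muscular dystrophy with fibre loss, regeneration and infiltration by macrophages. The strain also differs from C57BL/6J and DBA/2J at very many other loci, and the dysferlin defect and the rest of the SJL genome cannot be told apart in these data.

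Library totals lay between 20.04 and 30.4 M counts. Ckm, the creatine kinase of muscle, averaged 12150 ± 1916 CPM in SJL, against 18500 ± 4991 in C57BL/6J and 11690 ± 2243 in DBA/2J (mean ± SD, n = 8 each, here and below), and was not called, but was lower without the 6 libraries described next (-0.49 on the log2 scale, adjusted p = 0.00146). These and all other CPM, counts relative to library size, are scaled by TMM, except the percentages that follow, which are over plain library totals. The liver gene Alb reached 0.291% to 2.20% of its mean level in liver in SJL, against 0.0254% to 25.1% in C57BL/6J and 1.09% to 42.8% in DBA/2J. It exceeded 10% of the liver mean in 0 SJL, 4 C57BL/6J and 2 DBA/2J libraries. Ucp1, the uncoupling protein of brown fat, lay between 0.963% and 2.73% of its brown fat mean in SJL, against 0.00269% to 0.388% in C57BL/6J and 0.00366% to 7.65% in DBA/2J. The summed level of 18 liver markers was 469 to 2921 CPM in SJL, against 118 to 47340 in C57BL/6J and 1817 to 65140 in DBA/2J. Counts of lists that moved are given again without the 6 libraries over 10%, which hold most Alb, and so are named genes that gained or lost a call there. Over the remaining 18 libraries 23.1% of genes were higher and 17.1% lower. Among the SJL libraries that of mouse 64, on the vegan diet, lay farthest from its strain, with a root mean square log2 deviation of 0.622 from the SJL means, against 0.224 to 0.308 for the other 7 SJL libraries. This deviation was 0.379 to 0.858 in C57BL/6J and 0.283 to 0.766 in DBA/2J.

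**Figure D1:**
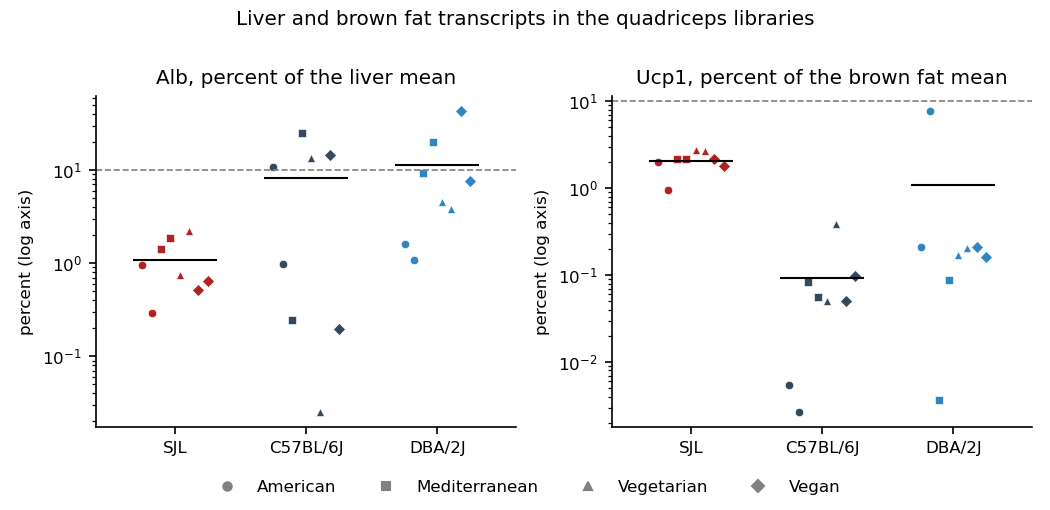
Alb as a percent of its liver mean and Ucp1 as a percent of its brown fat mean in each of the 24 quadriceps libraries, over plain library totals, with a dashed line at 10%. The 8 SJL libraries stay at or under 2.20% for Alb and lie between 0.963% and 2.73% for Ucp1, while 6 control libraries exceed 10% for Alb.

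SJL muscle differed from that of the control strains over a large part of the transcriptome. Of 17941 genes tested, 3462 (19.3%) were higher and 2919 (16.3%) were lower in SJL than in the mean of C57BL/6J and DBA/2J, by edgeR's quasi-likelihood test with strain and diet in the model and a Benjamini-Hochberg adjusted p under 0.05. Against C57BL/6J alone 36% of genes were called, and against DBA/2J alone 27.3%. A call in all 3 contrasts with 1 sign was met by 1983 genes higher in SJL (11.1%) and 1464 lower (8.16%). These contrasts share the SJL libraries and are not independent. In 658 genes (3.67%) all 8 SJL libraries lay above all 16 controls, and in 192 (1.07%) they all lay below. The gene lists below and their members were chosen with earlier results of these data known. A surplus of calls in a list over these shares can thus be partly built in.

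Liver transcripts were among the lower genes. Of the 1464 genes lower than in both strains, 42.2% stood in liver at 10 times their mean SJL muscle level or more, against 0% of the 1983 higher genes and 6.35% of all genes tested. A low SJL level raises this ratio and a high one lowers it, so these shares are partly fixed by the calls themselves. All 18 of 18 liver markers were lower in SJL, with a median log2 difference of -3.11. Without the 6 libraries with most Alb 0 were called, and the median was -0.81. These 6 are all controls and were picked by Alb, itself among the markers, so a smaller difference was built in. Without the 6 libraries 2037 genes were higher than in both strains and 1254 lower. Of these, 1575 and 742 were among the genes called with all libraries. The count of 1464 was 875 without SJL mouse 63 and 912 without SJL mouse 54. The median log2 difference of all genes was 0.017. With RLE size factors in place of TMM it was -0.0076, with 18% of genes higher and 17.7% lower. With limma on the authors' TPM values it was 0.192, with 35.6% of genes higher and 5.89% lower. That alternative changes the test, the scale, the filter and the normalization together, and which of them moved the counts was not tested.

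Dysf itself (chr6:83985345-84188042, GRCm39) was higher in SJL. Its transcript was measured at 112, 120.0 and 127 CPM in the lowest, median and highest SJL library, against 46.6, 72.1 and 114 CPM in the controls. The groups overlapped in 1 control, C57BL/6J mouse 7, which exceeded the 2 lowest SJL values. The mean was 119 ± 5.12 CPM in SJL, against 82.0 ± 23.2 in C57BL/6J and 65.4 ± 11.4 in DBA/2J, with a log2 difference of 0.70 (SE 0.128, edgeR adjusted p = 1.70e-04). Without the 6 libraries the log2 difference was 0.49 (adjusted p = 8.87e-05). Gene counts do not resolve the exon that the SJL mutation removes, so the level of whole dysferlin transcript was not measured.

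Of 31 genes of membrane repair 9 were higher, Dysf included, and 2 lower (29.0% and 6.45%, against 19.3% and 16.3% of all genes). Their median log2 difference was 0.11. Anxa1 and Anxa5 encode annexins that bind wounded membrane when calcium enters. Anxa1 averaged 50.7 ± 5.51 CPM in SJL, against 28.2 ± 7.11 in C57BL/6J and 30.1 ± 7.24 in DBA/2J, and Anxa5 80.2 ± 6.74 CPM in SJL, against 54.1 ± 8.85 in C57BL/6J and 55.0 ± 9.14 in DBA/2J. For both, all 8 SJL libraries lay above all controls. Anxa2, Myof, which encodes the myoblast ferlin myoferlin, Ahnak, Ahnak2 and the caveolar coat genes Cavin1 and Cavin4 were the other members that rose, by 0.25 to 0.90 on the log2 scale. Fer1l6, a further ferlin, was lower in every SJL library than in any control, with 2.71 ± 0.439 CPM in SJL, against 5.80 ± 1.05 in C57BL/6J and 8.56 ± 1.69 in DBA/2J (log2 -1.38, SE 0.134, adjusted p = 4.57e-08). Smpd1, the acid sphingomyelinase that lysosomes release at a wound, fell by 0.36 on the log2 scale. With the 6 libraries left out, Cavin1 and Cavin4 were not called (adjusted p = 0.150 and 0.175). Trim72, or mitsugumin 53, which nucleates the repair patch, was not called, with 139.6 CPM in SJL, against 121 in C57BL/6J and 117 in DBA/2J. Over the remaining 18 libraries 8 of the 31 members were higher and 8 lower, beside 23.1% and 17.1% of all genes.

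The dystrophin complex links the cytoskeleton of the fibre to the basement membrane. Of 26 genes of the complex and its matrix partners 6 were higher and 3 lower (23.1% and 11.5%, near the shares of all genes), and 4 and 7 without the 6 libraries, with a median log2 difference of 0.06 over all libraries and -0.08 without the 6. With only the 14 libraries at or under the highest SJL Alb percentage, 8 SJL, 4 C57BL/6J and 2 DBA/2J, 0 were higher and 6 lower. In that setting 14.9% of all genes were higher and 11% lower. Dmd, the gene of dystrophin itself, averaged 93.7 CPM in SJL, against 72.3 in C57BL/6J and 97.2 in DBA/2J and was not called, nor was Utrn or any of the sarcoglycan genes. When the 6 libraries were left out, Sgca and Sgcb of the sarcoglycans, Dag1, for dystroglycan, and Sspn were among the lower genes, with log2 differences of -0.40, -0.23, -0.42 and -0.23. The higher genes were the collagen VI genes Col6a1, Col6a2 and Col6a3, the laminin gene Lama2 and the integrin genes Itga7 and Itgb1, of which Itga7 and Itgb1 were not called without the 6 libraries (adjusted p = 0.0782 and 0.0692).

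Nos1 encodes the neuronal nitric oxide synthase that the complex anchors under the membrane. It was measured at 10.8, 26.5 and 33.8 CPM in the lowest, median and highest SJL library, against 38.0, 70.0 and 201 CPM in the controls, and the groups did not overlap. The lowest of these SJL values was that of mouse 64. The control strains stood apart from each other, and the means were 25.9 ± 6.70 CPM in SJL, against 139 ± 48.5 in C57BL/6J and 53.5 ± 11.5 in DBA/2J, so that the log2 difference was -2.38 against C57BL/6J and -1.04 against DBA/2J (adjusted p = 1.40e-07 and 0.00190). Dtnb, for a dystrobrevin, fell by 0.62 on the log2 scale, and stood at 24.4 CPM in liver. Its log2 difference was -0.33 without the 6 libraries (adjusted p = 0.0505) and -0.14 over the 14 libraries lowest in Alb (adjusted p = 0.550).

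Genes that muscle uses while it forms or repairs fibres were higher in SJL. Regeneration starts from satellite cells, which divide, switch on myogenic regulators such as myogenin, fuse through myomaker and myomixer, and build fibres that first hold embryonic contractile proteins and the fetal acetylcholine receptor. Of 28 genes of this group 16 were higher and 0 lower (57.1% and 0%, against 19.3% and 16.3% of all genes). Their median log2 difference was 1.25. In 12 all SJL libraries lay above all controls, beside 3.67% of all genes. In bulk tissue more cells of a type and more RNA per cell cannot be told apart. Without the 6 libraries 19 were higher and 2, Myh8 and Cdh15, lower. Without SJL mouse 64 18 were higher and 0 lower.

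Mymk, the gene of the fusion protein myomaker, was measured at 6.72, 8.76 and 14.3 CPM in the lowest, median and highest SJL library, against 0.0399, 0.216 and 2.99 CPM in the controls, with no overlap. The log2 difference was 4.76 (SE 0.457, edgeR adjusted p = 7.35e-08). Mymx, for its partner myomixer, averaged 1.45 CPM in SJL, against 0.193 in C57BL/6J and 0.240 in DBA/2J. Myog, the gene of myogenin, averaged 17.9 CPM in SJL, against 2.96 in C57BL/6J and 6.07 in DBA/2J, with a log2 difference of 2.09. Pax7, the satellite cell factor, and the early regulators Myod1 and Myf5 were not called. Pax7 averaged 2.27 CPM in SJL, against 2.47 in C57BL/6J and 2.23 in DBA/2J, Myod1 24.9 CPM in SJL, against 23.1 in C57BL/6J and 19.0 in DBA/2J, and Myf5 1.23 CPM in SJL, against 0.702 in C57BL/6J and 1.02 in DBA/2J. With the 6 libraries left out, Myf5 was called higher, with a log2 difference of 0.85 (adjusted p = 0.00281), and over the 14 libraries lowest in Alb it was 0.78 (adjusted p = 0.0223).

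Chrng encodes the fetal gamma subunit of the muscle acetylcholine receptor, which the epsilon subunit from Chrne replaces after birth. It was measured at 3.04, 4.75 and 8.98 CPM in the lowest, median and highest SJL library, against 0.0550, 0.344 and 0.528 CPM in the controls, and the groups were far apart. The log2 difference was 4.06 (SE 0.240, adjusted p = 5.16e-11). The alpha, beta and delta subunit genes Chrna1, Chrnb1 and Chrnd, which both forms of the receptor use, also had no overlap between SJL and the controls. Chrna1 averaged 33.6 ± 5.32 CPM in SJL, against 12.6 ± 3.23 in C57BL/6J and 14.2 ± 2.35 in DBA/2J, and Chrnb1 53.0 ± 8.15 CPM in SJL, against 21.4 ± 3.33 in C57BL/6J and 32.1 ± 5.34 in DBA/2J. Chrne was not called, with 17.4 CPM in SJL, against 11.7 in C57BL/6J and 24.2 in DBA/2J. Of 15 genes of the neuromuscular junction 6 were higher and 0 lower (40% and 0%, against 19.3% and 16.3% of all genes). The counts were 6 and 2 without the 6 libraries. The others that rose were Ache and Colq, for acetylcholinesterase and its anchor, and Prkar1a, a kinase subunit. The organising genes Musk, Dok7, Rapsn and Lrp4 were not called, but Lrp4 was lower without the 6 libraries (log2 -0.29, adjusted p = 0.0358).

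Receptor subunit genes are known to carry E-boxes, bound by myogenic regulators, close to their start. The promoter windows of Chrng, chr1:87205561-87205860 on the + strand, and Chrna1, chr2:73580289-73580588 on the - strand, are shown 5′ to 3′ because both genes rose and both windows hold the motif CAGCTG, in capitals. The windows are from RefSeq and run from 250 bases before to 50 after each start, on GRCm38.p6, a different build from that of the counts.
Chrng: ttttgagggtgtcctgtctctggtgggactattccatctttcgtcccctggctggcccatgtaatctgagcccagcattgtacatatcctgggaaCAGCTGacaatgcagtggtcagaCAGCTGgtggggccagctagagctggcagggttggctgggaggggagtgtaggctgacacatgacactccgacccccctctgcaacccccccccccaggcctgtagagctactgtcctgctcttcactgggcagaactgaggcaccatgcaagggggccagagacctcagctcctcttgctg
Chrna1: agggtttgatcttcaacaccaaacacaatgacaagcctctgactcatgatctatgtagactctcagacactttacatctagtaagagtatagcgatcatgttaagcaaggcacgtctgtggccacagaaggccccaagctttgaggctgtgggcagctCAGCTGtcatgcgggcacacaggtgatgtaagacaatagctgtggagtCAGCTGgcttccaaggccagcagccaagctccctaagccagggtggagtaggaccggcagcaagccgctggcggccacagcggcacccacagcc
Each window holds 2 matches. CAGCTG reads the same on both strands. It was found for 4 of the 11 higher regeneration genes that had a window (36.4%) and for 4944 of 27018 genes in the whole table (18.3%). A match describes these letters and is not evidence of binding.

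Embryonic and fetal contractile genes were higher as well. Myl4, the embryonic and atrial light chain of myosin, averaged 50.7 ± 18.0 CPM in SJL, against 5.20 ± 3.18 in C57BL/6J and 4.08 ± 1.04 in DBA/2J (log2 3.48, SE 0.240, adjusted p = 5.55e-10). Actc1, the cardiac actin of developing skeletal muscle, was measured at 374, 521 and 605 CPM in the lowest, median and highest SJL library, against 12.7, 69.0 and 303 CPM in the controls. The control strains differed from each other, and all SJL libraries lay above both. The means were 513 ± 66.9 CPM in SJL, against 145 ± 88.7 in C57BL/6J and 40.3 ± 42.8 in DBA/2J.

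Myh3, the embryonic myosin heavy chain, averaged 43.0 ± 24.4 CPM in SJL, against 10.4 ± 12.5 in C57BL/6J and 18.3 ± 39.0 in DBA/2J. The highest SJL value was 100.5 CPM in mouse 57. DBA/2J mouse 33 reached 115 CPM and C57BL/6J mouse 2 40.7 CPM, so the groups overlapped. The log2 difference was 2.44 (SE 0.571, adjusted p = 0.00262). Without the 6 libraries it was 2.05 (adjusted p = 0.0292), and over the 14 libraries lowest in Alb 0.75 (adjusted p = 0.517). Only 2 of these 14 libraries are DBA/2J, and mouse 33 is among them. The other DBA/2J libraries held 2.62 to 5.89 CPM of Myh3. The part of mouse 33 in the smaller difference was not tested. Myh8, the perinatal myosin, was not called over all libraries, with 205 CPM in SJL, against 292 in C57BL/6J and 209.5 in DBA/2J.

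Ankrd1, a titin-binding protein that stretched or injured fibres make, was measured at 25.6, 41.1 and 70.0 CPM in the lowest, median and highest SJL library, against 3.53, 5.74 and 8.92 CPM in the controls. The groups did not overlap, and the log2 difference was 2.90 (SE 0.134, adjusted p = 2.05e-12). Runx1, a transcription factor of denervated and damaged fibres, averaged 10.9 ± 2.38 CPM in SJL, against 2.26 ± 0.779 in C57BL/6J and 2.45 ± 0.484 in DBA/2J. Sln, for sarcolipin, which inhibits the calcium pump of the sarcoplasmic reticulum, averaged 5.40 ± 1.32 CPM in SJL, against 1.44 ± 0.550 in C57BL/6J and 1.13 ± 0.546 in DBA/2J. Both had no overlap between SJL and the controls. Of 24 genes of calcium release and uptake 3 were higher and 2 lower (12.5% and 8.33%, under the shares of all genes). Over the remaining 18 libraries 2 were higher and 9 lower, the fast pump gene Atp2a1 (log2 -0.60, adjusted p = 1.12e-04) and the junctophilin gene Jph2 (log2 -0.60, adjusted p = 1.36e-05) included. Pln, another inhibitor of the pump, and the slow pump gene Atp2a2 were the other higher members over all libraries, and Atp2a2 was not called without the 6 (adjusted p = 0.147). The release channel gene Ryr1 and the voltage sensor gene Cacna1s fell by 0.46 and 0.65 on the log2 scale. Neither was called lower against both control strains.

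**Figure D2:**
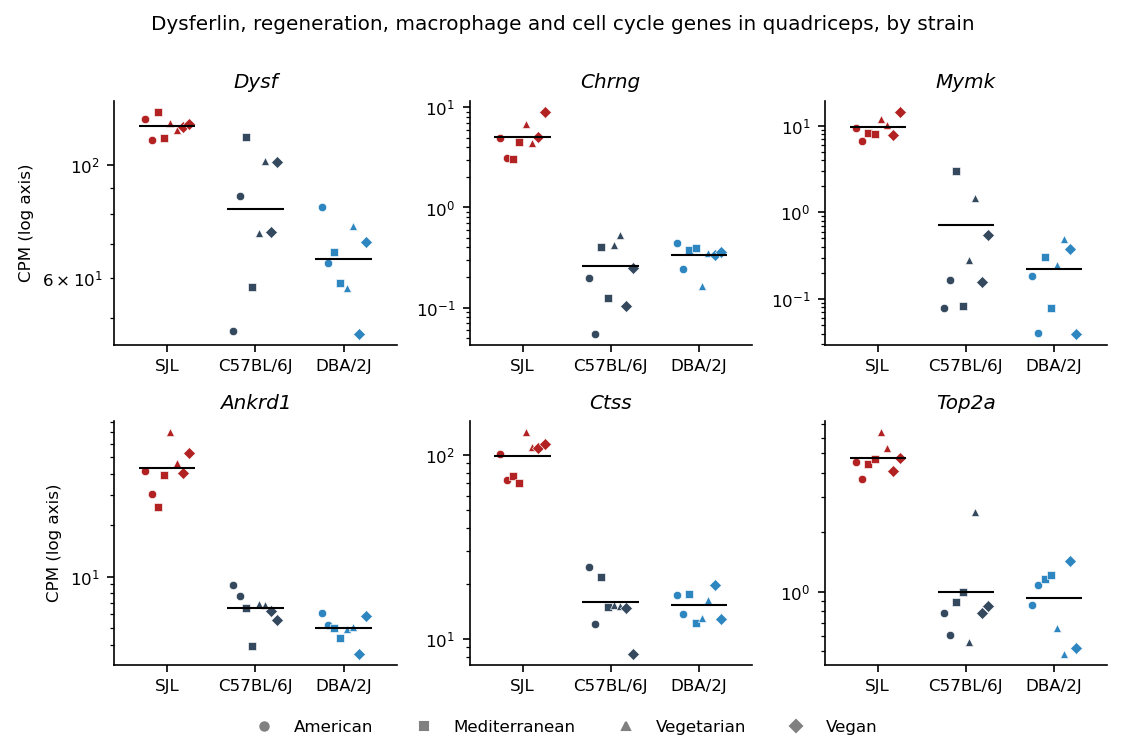
CPM (log axes) of Dysf, Chrng, Mymk, Ankrd1, Ctss and Top2a in each quadriceps library, by strain; shapes give the diet and lines the strain means (n = 8 each). For 5 of the 6 genes all SJL libraries lie above all controls, and for Dysf 1 C57BL/6J library reaches into the SJL range.

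Genes of cell division were higher. Of 19 tested 16 were higher and 2 lower (84.2% and 10.5%), the same counts as without the 6 libraries, with a median log2 difference of 1.75. Top2a, a topoisomerase of dividing cells, averaged 4.71 ± 0.820 CPM in SJL, against 0.998 ± 0.631 in C57BL/6J and 0.926 ± 0.349 in DBA/2J. Mcm6, part of the helicase that opens DNA for replication, averaged 7.97 ± 0.580 CPM in SJL, against 4.11 ± 0.819 in C57BL/6J and 1.23 ± 0.387 in DBA/2J, and Rrm2, which makes nucleotides, 3.73 ± 0.587 CPM in SJL, against 1.24 ± 0.387 in C57BL/6J and 0.928 ± 0.233 in DBA/2J. None of the 3 overlapped between SJL and the controls. The lower members Aurka and Mcm2 fell by 0.42 and 0.36 on the log2 scale. Bulk tissue does not show which cells these transcripts came from.

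Macrophage genes were higher in SJL. Macrophages clear dying fibres and direct the satellite cells that replace them. Of 20 markers 17 were higher and 0 lower (85% and 0%), with a median log2 difference of 1.48. In 9 all SJL libraries lay above all controls, beside 3.67% of all genes. When the 6 libraries were left out, 16 were higher and 0 lower. Their summed level was 786 to 1208 CPM in SJL, against 336 to 715 in C57BL/6J and 331 to 388 in DBA/2J. Ctss, a lysosomal protease that trims the invariant chain of MHC class II, was measured at 70.3, 104 and 132 CPM in the lowest, median and highest SJL library, against 8.31, 15.1 and 24.7 CPM in the controls. All SJL libraries lay above all controls (log2 2.65, SE 0.155, adjusted p = 4.95e-11). Ms4a7, a membrane protein of macrophages, averaged 13.7 ± 4.12 CPM in SJL, against 2.05 ± 0.752 in C57BL/6J and 1.64 ± 0.451 in DBA/2J. Fcgr1, a high affinity receptor for IgG, and Cx3cr1, the fractalkine receptor, had log2 differences of 2.41 and 2.39. Among genes that mark resident macrophages the scavenger receptor gene Cd163, the hyaluronan receptor gene Lyve1 and Mertk were not called, while Cbr2, the mannose receptor gene Mrc1 and the folate receptor gene Folr2 were higher. Lyve1 averaged 10.9 CPM in SJL, against 12.1 in C57BL/6J and 10.2 in DBA/2J, and Cd163 28.6 CPM in SJL, against 23.8 in C57BL/6J and 22.7 in DBA/2J. Cbr2, Mrc1 and Folr2 had log2 differences of 1.88, 1.00 and 0.48 (adjusted p = 9.68e-09, 3.05e-08 and 0.0177), and Folr2 was not called without the 6 libraries (adjusted p = 0.0823).

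Genes of lipid-associated, phagocytic macrophages were higher in 13 and lower in 1 of 19 (68.4% and 5.26%), and in 15 and 0 without the 6 libraries. Lgals3, for galectin 3, averaged 45.1 ± 11.6 CPM in SJL, against 8.65 ± 6.30 in C57BL/6J and 7.16 ± 2.94 in DBA/2J. Itgax, for the integrin CD11c, averaged 6.36 ± 1.63 CPM in SJL, against 1.09 ± 0.533 in C57BL/6J and 1.24 ± 1.13 in DBA/2J. Neither overlapped between SJL and the controls. Gpnmb, a glycoprotein of such cells, averaged 33.1 ± 8.56 CPM in SJL, against 9.90 ± 6.20 in C57BL/6J and 0.515 ± 0.347 in DBA/2J. DBA/2J mice are known to carry a nonsense mutation in Gpnmb, and against C57BL/6J alone the log2 difference was 1.76 (adjusted p = 3.93e-04). Apoe, the lower member, is made at high levels in liver, and without the 6 libraries with most Alb its log2 difference was -0.26 (adjusted p = 0.411).

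Sensors of microbial and damage signals were higher too. Of 20 genes of inflammasomes and Toll-like receptors 18 were higher and 0 lower (90% and 0%). In 8 all SJL libraries lay above all controls, beside 3.67% of all genes. Tlr1, part of a receptor for bacterial lipoproteins, averaged 3.31 ± 1.19 CPM in SJL, against 0.396 ± 0.210 in C57BL/6J and 0.354 ± 0.0847 in DBA/2J. Tlr13, which binds bacterial ribosomal RNA, averaged 5.85 ± 2.60 CPM in SJL, against 1.08 ± 0.509 in C57BL/6J and 1.60 ± 0.368 in DBA/2J. The inflammatory caspase genes Casp1 and Casp4 had log2 differences of 1.64 and 2.06. Il1b, the cytokine that inflammasomes release, averaged 1.50 CPM in SJL, against 0.323 in C57BL/6J and 0.367 in DBA/2J. Il18, another such cytokine, and Gsdmd, for the pore-forming gasdermin D, were not called over all libraries. Without the 6 libraries both were higher, with log2 differences of 0.76 and 0.97 (adjusted p = 0.00174 and 1.33e-05), and 20 of 20 genes of the list were.

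In complement, 8 of 23 genes were higher and 4 lower (34.8% and 17.4%, the lower share near that of all genes), and 11 and 2 without the 6 libraries. C1qa, C1qb and C1qc, which macrophages make, and the anaphylatoxin receptor genes C3ar1 and C5ar1 were among the higher ones, and C1qa averaged 85.0 ± 20.2 CPM in SJL, against 37.1 ± 15.2 in C57BL/6J and 31.7 ± 4.22 in DBA/2J. C3, C8g and Masp1, which liver makes, were lower. With the 6 libraries left out, their log2 differences were -0.71, -0.54 and -0.38 (adjusted p = 0.0128, 0.191 and 0.194). Cd55, or decay-accelerating factor, protects cells from complement by dissolving its convertases. It was measured at 12.8, 14.5 and 16.9 CPM in the lowest, median and highest SJL library, against 35.1, 51.5 and 69.5 CPM in the controls, with no overlap. The log2 difference was -1.83 (SE 0.110, adjusted p = 6.36e-11), and -1.79 without the 6 libraries. The mean level of Cd55 in liver was 12.0 CPM.

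Of 9 genes of neutrophils and monocytes 7 were higher and 0 lower (77.8% and 0%), also without the 6 libraries. Ccr2, the chemokine receptor of inflammatory monocytes, averaged 16.6 ± 3.35 CPM in SJL, against 5.46 ± 1.23 in C57BL/6J and 3.91 ± 1.09 in DBA/2J. The neutrophil genes S100a8 and S100a9 were not called. S100a8 averaged 0.469 CPM in SJL, against 2.52 in C57BL/6J and 0.609 in DBA/2J, and S100a9 0.772 CPM in SJL, against 3.71 in C57BL/6J and 0.428 in DBA/2J. Of 13 genes of T and NK cells 10 were higher and 1 lower (76.9% and 7.69%), and 11 and 1 without the 6 libraries. Cd4, the coreceptor of helper T cells, averaged 4.82 ± 1.42 CPM in SJL, against 0.981 ± 0.862 in C57BL/6J and 0.988 ± 0.773 in DBA/2J. Ccl5, a chemokine of T and NK cells, averaged 2.70 ± 1.12 CPM in SJL, against 0.369 ± 0.281 in C57BL/6J and 0.264 ± 0.114 in DBA/2J, and its lowest SJL value was 0.542 CPM in mouse 54. The costimulatory receptor gene Cd28 fell by 0.94 on the log2 scale. Cd8a, Cd8b1, Gzma and Gzmb of cytotoxic cells did not pass the filter on low counts. Of 6 mast cell genes 5 were higher (4 without the 6 libraries), with the protease gene Cpa3 at 8.22 ± 1.45 CPM in SJL, against 4.11 ± 1.12 in C57BL/6J and 4.93 ± 0.849 in DBA/2J. Of 8 B cell genes 2 were higher, Cd22 and Ighm (25%, against 19.3% of all genes). Cd79a, which defines B cells, was not called, with 0.739 CPM in SJL, against 0.508 in C57BL/6J and 0.333 in DBA/2J.

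Genes of antigen presentation by MHC class II were higher in 10 and lower in 1 of the 11 tested (90.9% and 9.09%). H2-Eb1, a class II beta chain, was measured at 97.5, 121 and 168 CPM in the lowest, median and highest SJL library, against 18.2, 29.2 and 77.2 CPM in the controls. The groups did not overlap (log2 1.98, SE 0.158, adjusted p = 2.75e-09). H2-DMb2, which helps to load peptides, averaged 6.72 ± 0.488 CPM in SJL, against 0.925 ± 0.338 in C57BL/6J and 1.91 ± 0.534 in DBA/2J. Ciita, the master regulator of class II genes, averaged 7.34 CPM in SJL, against 2.92 in C57BL/6J and 2.61 in DBA/2J. H2-Ea, the lower member, is known not to be expressed in some MHC haplotypes, and averaged 0.283 CPM in SJL, against 1.38 in C57BL/6J and 20.4 in DBA/2J. In class I 10 of 19 genes were higher and 1 lower, and 15 and 1 without the 6 libraries, where B2m, the common light chain, and Nlrc5, the regulator of class I genes, were also higher (log2 0.80 and 1.47, adjusted p = 4.96e-05 and 1.96e-05). The peptide transporter gene Tap1 averaged 18.1 CPM in SJL, against 7.69 in C57BL/6J and 8.54 in DBA/2J. H2-Q6, H2-Q7 and H2-T10 had log2 differences of 2.51, 2.34 and 3.03, which are uncertain because these genes have near-identical relatives among which reads could be split.

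Interferon-stimulated genes were higher in 29 and lower in 0 of 31 (93.5% and 0%), at a median log2 difference of 1.19. All 31 were higher without the 6 libraries with most Alb. In 2 of the 31 all SJL libraries lay above all controls, beside 3.67% of all genes. Oas2, which senses double-stranded RNA, was measured at 4.38, 20.8 and 30.6 CPM in the lowest, median and highest SJL library, against 1.37, 2.64 and 4.67 CPM in the controls (log2 2.81, SE 0.254, adjusted p = 2.01e-08). The lowest SJL value was that of mouse 54, on the Mediterranean diet, which reached into the control range, and the other 7 SJL libraries were at or above 17.4 CPM. Mouse 54 was also the lowest SJL library for Oasl2 and Oas1a, at 5.79 and 2.17 CPM. Without it 30 genes of the list were higher. Irf7, a regulator of the interferon response, averaged 35.5 CPM in SJL, against 8.34 in C57BL/6J and 7.89 in DBA/2J. Gbp2, a GTPase that interferon gamma induces, averaged 21.7 ± 2.97 CPM in SJL, against 9.66 ± 1.77 in C57BL/6J and 10.7 ± 2.11 in DBA/2J, with no overlap.

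Many of these genes are known to share an interferon-response element near their start. The RefSeq windows of Gbp2, chr3:142620413-142620712 on the + strand, and Oas1a, chr5:120907476-120907775 on the - strand, on GRCm38.p6, are shown 5′ to 3′ because both genes rose and hold this motif (GAAA, any 2 bases, GAAA, on either strand), in capitals.
Gbp2: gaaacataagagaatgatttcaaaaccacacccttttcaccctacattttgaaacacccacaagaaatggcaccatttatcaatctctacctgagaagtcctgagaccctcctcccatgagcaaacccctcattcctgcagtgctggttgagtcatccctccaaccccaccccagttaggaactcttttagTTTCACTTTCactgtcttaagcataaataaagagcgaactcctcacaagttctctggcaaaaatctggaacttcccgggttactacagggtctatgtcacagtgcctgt
Oas1a: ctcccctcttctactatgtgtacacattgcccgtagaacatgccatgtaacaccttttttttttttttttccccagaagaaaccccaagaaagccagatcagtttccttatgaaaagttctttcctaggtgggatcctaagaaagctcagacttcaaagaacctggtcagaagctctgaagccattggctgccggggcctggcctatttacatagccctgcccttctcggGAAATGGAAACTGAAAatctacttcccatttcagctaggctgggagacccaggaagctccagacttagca
The capitals in Oas1a cover 2 overlapping matches, and those in Gbp2 1 match on the opposite strand. The motif was found for 14 of the 21 higher interferon-stimulated genes that had a window (66.7%), for 0 of 9 higher class I genes, and for 1079 of 27018 genes in the whole table (3.99%). Factor binding was not measured.

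**Figure D3:**
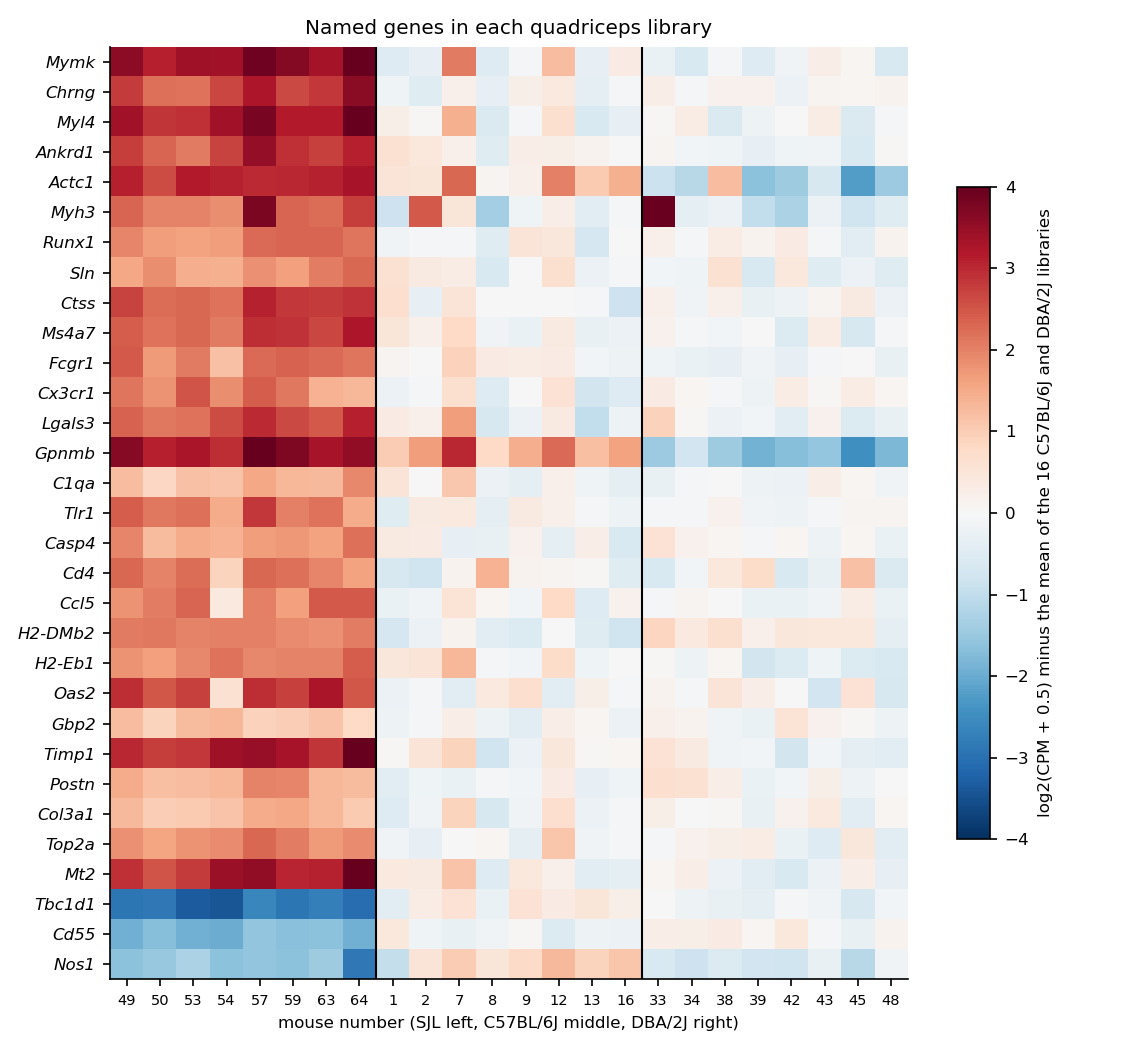
Level of named genes (rows) in each quadriceps library (columns, by mouse number; SJL left, C57BL/6J middle, DBA/2J right), as log2(CPM + 0.5) minus the mean of the 16 controls; red is higher and blue lower. Tbc1d1, Cd55 and Nos1 are blue in SJL and the other rows red, mouse 54 is pale for Oas2 and Ccl5, and DBA/2J mouse 33 is red for Myh3.

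Collagen and matrix genes were higher in SJL. Scar and fat replace fibres in late dystrophy, and fibro-adipogenic progenitors are a main source of the matrix. Of 17 collagen genes 13 were higher and 1 lower (76.5% and 5.88%, against 19.3% and 16.3% of all genes). Col3a1, a collagen of loose and scar tissue, averaged 884 ± 134 CPM in SJL, against 392 ± 165 in C57BL/6J and 384 ± 67.8 in DBA/2J, with no overlap (log2 1.19, SE 0.148, adjusted p = 1.48e-06). Col8a1 and Col16a1, minor collagens, had no overlap either. Col1a1, the main collagen of scars, averaged 329.8 CPM in SJL, against 256 in C57BL/6J and 179.9 in DBA/2J, with an adjusted p of 0.0286, and 0.0739 without the 6 libraries with most Alb. Without them 11 collagen genes were higher, beside 23.1% of all genes. With only the 14 libraries lowest in Alb 5 were higher, beside 14.9% of all genes. Col18a1, which liver makes, was lower, with a log2 difference of -1.61 (adjusted p = 0.0108). It was -0.64 without the 6 libraries (adjusted p = 0.0119), -0.97 with Alb and Ucp1 as covariates (adjusted p = 0.0370), and -0.27 over those 14 libraries (adjusted p = 0.233).

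Of 34 genes of matrix remodelling 19 were higher and 0 lower (55.9% and 0%, against 19.3% and 16.3% of all genes). Of the 19, 11 were called higher against both control strains (32.4%, against 11.1% of all genes). Timp1, an inhibitor of matrix metalloproteinases, was measured at 9.46, 12.6 and 24.3 CPM in the lowest, median and highest SJL library, against 0.332, 0.927 and 2.19 CPM in the controls. The groups did not overlap, and the highest value was that of mouse 64 (log2 3.77, SE 0.259, adjusted p = 3.87e-10). Postn, for periostin, a matrix protein of healing tissue, averaged 44.4 ± 10.8 CPM in SJL, against 13.9 ± 2.45 in C57BL/6J and 17.5 ± 4.62 in DBA/2J. Lum, for the collagen-binding lumican, averaged 98.7 ± 12.9 CPM in SJL, against 38.5 ± 9.24 in C57BL/6J and 42.7 ± 7.57 in DBA/2J. Mmp3, for stromelysin, had a log2 difference of 2.14. Tgfb1, a growth factor of fibrosis, averaged 13.9 CPM in SJL, against 8.13 in C57BL/6J and 6.94 in DBA/2J. Over the remaining 18 libraries 11 genes of the list were higher and 3 lower.

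Markers of cells that reside in muscle were called in both directions. Of 14 genes of fibro-adipogenic progenitors 4 were higher, Pdgfra, Ly6a, Cd34 and Mfap5, and 2 lower, Cd55 and Dpp4 (28.6% and 14.3%), against 19.3% and 16.3% of all genes. When the 6 libraries were left out, 2 were higher and 2 lower. Cd34, Mfap5 and Dpp4 were not called there (adjusted p = 0.0597, 0.0941 and 0.183), and Dpp4 stood at 122 CPM in liver. Ly6a, the stem cell antigen Sca-1, averaged 107 ± 22.8 CPM in SJL, against 61.6 ± 18.4 in C57BL/6J and 46.3 ± 8.39 in DBA/2J. Of 14 endothelial genes 1 was higher and 2 lower (7.14% and 14.3%, at or under the shares of all genes), with Pecam1 at 77.2 CPM in SJL, against 73.3 in C57BL/6J and 73.8 in DBA/2J. Without the 6 libraries the counts were 1 and 4. Of 11 smooth muscle and pericyte genes 0 were higher and 3 lower (0% and 27.3%), also without the 6 libraries. None of the 3 was called lower against both control strains over all libraries. Of 11 Schwann cell and nerve genes 1 was higher and 1 lower (9.09% and 9.09%), and 0 and 4 without the 6 libraries, with the myelin gene Mbp at -0.46 on the log2 scale (adjusted p = 0.00445).

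Of 14 fat cell genes 3 were higher and 1 lower (21.4% and 7.14%, a higher share near that of all genes), and 3 and 2 without the 6 libraries. Over all libraries 1 of the 3 was called higher against both control strains (7.14%, against 11.1% of all genes). Fabp4, a fatty acid carrier of fat cells, endothelium and macrophages, averaged 400.0 ± 94.2 CPM in SJL, against 177 ± 79.8 in C57BL/6J and 267 ± 169.5 in DBA/2J. Adipoq, the gene of the fat cell hormone adiponectin, averaged 44.6 CPM in SJL, against 36.9 in C57BL/6J and 30.6 in DBA/2J (adjusted p = 0.0441), and was not called without the 6 libraries (adjusted p = 0.318). Mouse 64 had the highest SJL values of Fabp4 and of Cfd, for adipsin. Of 12 brown fat genes 5 were higher and 2 lower (41.7% and 16.7%, the lower share near that of all genes), and 3 and 3 without the 6 libraries. Over all libraries 1 of the 5 was called higher against both control strains (8.33%, against 11.1% of all genes). Ucp1 was measured at 59.8, 133 and 167 CPM in the lowest, median and highest SJL library, against 0.220, 7.43 and 506 CPM in the controls. All SJL libraries lay above the C57BL/6J libraries, and DBA/2J mouse 34 exceeded them all. The log2 difference was 4.17 against C57BL/6J (adjusted p = 0.00827) and 2.34 against DBA/2J (adjusted p = 0.241). Against the mean of both it was 3.25 (adjusted p = 0.0117), and 2.83 without the 6 libraries (adjusted p = 0.0648). Dio2, the deiodinase that activates thyroid hormone, averaged 8.66 ± 1.21 CPM in SJL, against 2.11 ± 0.886 in C57BL/6J and 3.85 ± 2.16 in DBA/2J. Zic1, a developmental factor of brown fat, averaged 0.179 CPM in SJL, against 0.897 in C57BL/6J and 0.436 in DBA/2J and was lower. The other lower member, Kng2, stood at 222 CPM in liver. Its log2 difference was -2.47, and -0.14 without the 6 libraries (adjusted p = 0.793).

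With Alb and Ucp1 as covariates 15 of the regeneration genes and 14 of the macrophage genes above were higher and 0 and 0 lower, while 12.9% of all genes were higher and 7.69% lower. Of the interferon-stimulated genes 28 were higher. The collagen genes called higher numbered 7, against 13 without the covariates. In matrix remodelling 9 genes were higher and 2 lower, against 19 and 0. Cell cycle genes called higher numbered 11, against 16. Mast cell genes numbered 2, against 5, fat cell genes 0, against 3, and brown fat genes 1, against 5. The covariate Ucp1 largely follows strain, with 59.8 to 167 CPM in SJL, against a median of 7.43 CPM in the controls. DBA/2J mouse 34, at 506 CPM, is the exception. This model therefore also takes up part of the strain difference, and its part in the smaller counts was not tested.

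Of 22 stress genes 10 were higher and 2 lower (45.5% and 9.09%, against 19.3% and 16.3% of all genes). Of the 10, 5 were called higher against both control strains. The counts were 7 and 2 without the 6 libraries, beside 23.1% and 17.1% of all genes. The metallothioneins bind zinc and copper, and Mt1, Mt2 and Mt3 had no overlap between SJL and the controls. Mt2 averaged 29.6 ± 11.7 CPM in SJL, against 3.21 ± 1.55 in C57BL/6J and 2.36 ± 0.638 in DBA/2J, and Mt3 6.57 ± 3.10 CPM in SJL, against 0.660 ± 0.384 in C57BL/6J and 0.448 ± 0.157 in DBA/2J. Mouse 64 was the highest SJL library for all 3. Hmox1, for haem oxygenase, and the heat shock genes Hspa1a, Hspa1b, Hspb1 and Hspb7 were among the other higher members, but none of these 5 was called without the 6 libraries (adjusted p = 0.0646, 0.115, 0.0602, 0.0525 and 0.0914). Hspa5 and Ddit3 of the unfolded protein response were not called over all libraries. With the 6 libraries left out, Hspa5, Dnaja1 and Hsp90aa1, all chaperone genes, were higher, by 0.39, 0.70 and 0.86 on the log2 scale (adjusted p = 0.0195, 0.00443 and 0.00357). Over all libraries Hspb6 and Nqo1 fell by 0.65 and 0.41 on the log2 scale.

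Of 12 slow fibre genes 5 were higher and 0 lower (41.7% and 0%, against 19.3% and 16.3% of all genes). Of the 5, 2 were called higher against both control strains (16.7%, against 11.1% of all genes). The counts were 3 and 0 without the 6 libraries. Tnni1, the slow troponin I that immature fibres also make, averaged 35.5 ± 12.1 CPM in SJL, against 15.6 ± 7.48 in C57BL/6J and 17.3 ± 7.14 in DBA/2J, and Tpm3, a slow tropomyosin, 104 ± 17.3 CPM in SJL, against 59.8 ± 17.6 in C57BL/6J and 43.1 ± 13.4 in DBA/2J. The slow myosin gene Myh7 was not called, with 66.0 ± 27.0 CPM in SJL, against 61.8 ± 45.9 in C57BL/6J and 54.5 ± 24.7 in DBA/2J. With only the 14 libraries lowest in Alb 1 gene of the list was higher, and likewise 1 with Alb and Ucp1 as covariates. Of all genes 14.9% and 12.9% were higher in these settings. Of 15 fast fibre genes 4 were lower, Myh1, Myh2, Myh4 and Actn3 (26.7%), and 0 higher. None of the 4 was called lower against both control strains. The summed level of the list was 138800 ± 21750 CPM in SJL, against 182100 ± 34050 in C57BL/6J and 139800 ± 25360 in DBA/2J. Limma on TPM, which called 35.6% of all genes higher and 5.89% lower, called 4 genes of the list higher and 0 lower. With RLE size factors 0 were higher and 4 lower, and without the 6 libraries 0 and 7.

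Per unit of transcript length, Myh4, the fastest myosin, averaged 15240 ± 2175 TPM in SJL, against 17820 ± 4457 in C57BL/6J and 17110 ± 3426 in DBA/2J, so that its mean TPM was lower in SJL than in either control strain. Its share of the TPM of the 4 adult myosin heavy chains was 90.3 ± 0.958% in SJL, against 91.5 ± 1.05% in C57BL/6J and 88.9 ± 1.28% in DBA/2J, so the SJL mean lay between those of the control strains. Myh3 averaged 19.1 ± 11.7 TPM in SJL, against 3.42 ± 3.85 in C57BL/6J and 7.84 ± 17.0 in DBA/2J, a small amount beside Myh4 in each strain.

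Energy metabolism was covered by 3 lists. Of 47 genes of the respiratory chain 0 were higher and 1 lower. This was Sdha, for a subunit of succinate dehydrogenase, with 736 ± 45.2 CPM in SJL, against 928 ± 77.8 in C57BL/6J and 1000 ± 112 in DBA/2J (log2 -0.39, adjusted p = 2.94e-04). On the TPM values 19 were higher and 0 lower with limma, which called 35.6% of all genes higher and 5.89% lower. The counts were 0 and 3 without the 6 libraries. Of 27 genes of fatty acid oxidation 1 was higher and 5 lower (3.7% and 18.5%, the lower share near that of all genes). On TPM 6 were higher and 1 lower, and without the 6 libraries 0 and 6. Of 21 genes of glycolysis 1 was higher, the hexokinase gene Hk1, and 5 lower (4.76% and 23.8%, against 19.3% and 16.3% of all genes). None of the 5 was called lower against both control strains. On TPM 5 were higher and 1 lower. Over the remaining 18 libraries 1 was higher and 10 lower, with the aldolase gene Aldoa at -0.64 and the phosphofructokinase gene Pfkm at -0.37 on the log2 scale (adjusted p = 8.94e-04 and 0.00209). Gapdh, at 160.1 CPM in SJL, against 586 in C57BL/6J and 131 in DBA/2J, has many processed copies in the genome, and its value is uncertain.

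Of 22 genes of muscle wasting and autophagy 0 were higher and 7 lower (31.8%), of which 2 were called lower against both control strains. On TPM, where 35.6% of all genes were higher and 5.89% lower, 6 were higher and 2 lower. The counts were 1 and 6 without the 6 libraries. Mstn, for myostatin, which restrains muscle growth, averaged 37.1 ± 7.00 CPM in SJL, against 58.0 ± 9.78 in C57BL/6J and 60.5 ± 14.0 in DBA/2J (log2 -0.68, adjusted p = 1.29e-04). Fbxo32, a ubiquitin ligase gene of atrophy, was lower, with 238 CPM in SJL, against 442 in C57BL/6J and 269 in DBA/2J (log2 -0.47, adjusted p = 0.0371). Its partner in atrophy Trim63 was not called, with 175 CPM in SJL, against 232 in C57BL/6J and 191 in DBA/2J (log2 -0.24, adjusted p = 0.0812). When the 6 libraries were left out, Trim63 was called, at -0.32 (adjusted p = 0.0173), and Fbxo32 was not, at -0.40 (adjusted p = 0.0932).

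**Figure D4:**
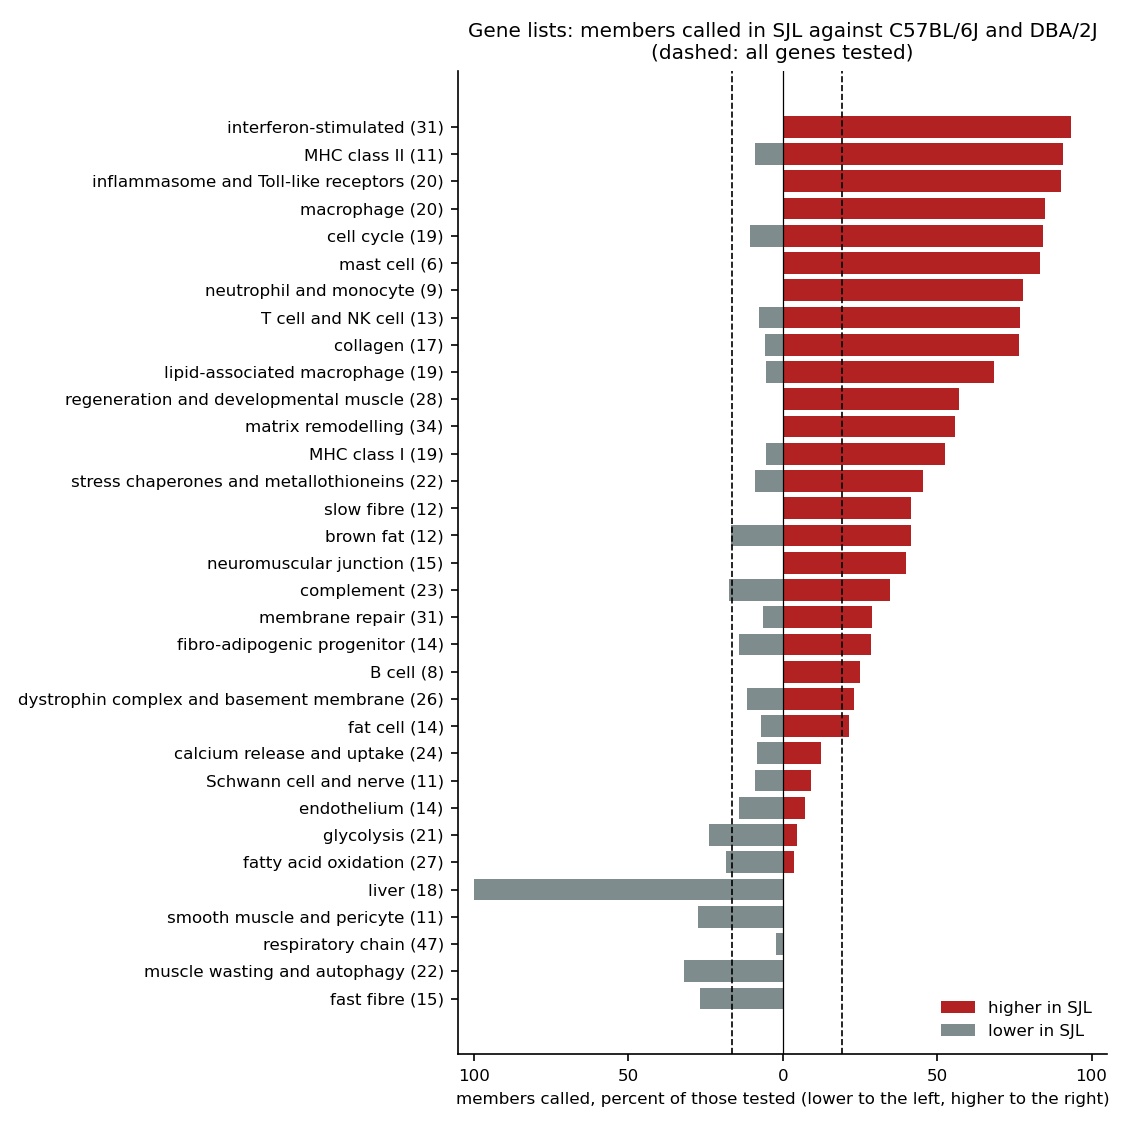
Share of each gene list called higher or lower in SJL than in C57BL/6J and DBA/2J, in percent of members tested; dashed lines mark the 19.3% higher and 16.3% lower of all 17941 genes. Interferon-stimulated, MHC class II, inflammasome and macrophage genes have the largest higher shares, and the liver genes are the list called lower throughout. The lists were chosen with earlier results of these data known.

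The largest falls that the naming rule gave begin with Tph1, an enzyme of serotonin synthesis, with 0.0878 ± 0.0840 CPM in SJL, against 5.06 ± 2.27 in C57BL/6J and 1.38 ± 0.540 in DBA/2J, and Pld5, of the phospholipase D family, with 0.173 ± 0.120 CPM in SJL, against 2.63 ± 0.761 in C57BL/6J and 3.95 ± 0.766 in DBA/2J. Tbc1d1 (chr5:64313648-64508829, GRCm39) controls the movement of the glucose transporter GLUT4 in muscle, and SJL mice are known to carry a truncating deletion in it. It was measured at 4.57, 6.82 and 8.40 CPM in the lowest, median and highest SJL library, against 34.6, 50.9 and 81.8 CPM in the controls, and the groups were far apart. The log2 difference was -3.09 (SE 0.141, adjusted p = 2.05e-12). Exph5, Htatip2, Cirpil, Pgcka1 and Akr1e1 had log2 differences between -3.23 and -2.14. In liver Exph5, Htatip2, Pgcka1 and Akr1e1 stood at 12.4, 35.6, 34.3 and 32.4 CPM, and without the 6 libraries with most Alb their log2 differences were -2.85, -2.95, -2.42 and -1.95, all 4 still called. Igfals and Ahcy stood at 115 and 839 CPM in liver. Without the 6 libraries their log2 differences were -1.87 and -1.50 (adjusted p = 3.55e-06 and 4.21e-05). Rpl26 averaged 33.0 ± 11.3 CPM in SJL, against 186 ± 63.4 in C57BL/6J and 178 ± 23.4 in DBA/2J, and is uncertain because ribosomal protein genes have processed copies among which reads can be split.

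Among the largest rises not yet described, Rrad, for a small GTPase that binds calcium channels, averaged 29.1 ± 7.22 CPM in SJL, against 3.92 ± 1.51 in C57BL/6J and 2.82 ± 1.20 in DBA/2J. Adam8, a surface protease of leukocytes, averaged 9.73 ± 3.69 CPM in SJL, against 1.33 ± 0.443 in C57BL/6J and 1.30 ± 0.746 in DBA/2J. Both had no overlap between SJL and the controls. Mir692-2 had the largest log2 difference under the rule, 5.51, but reads of polyadenylated RNA do not measure a mature miRNA and the locus has copies, so the value is uncertain.

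**Figure D5:**
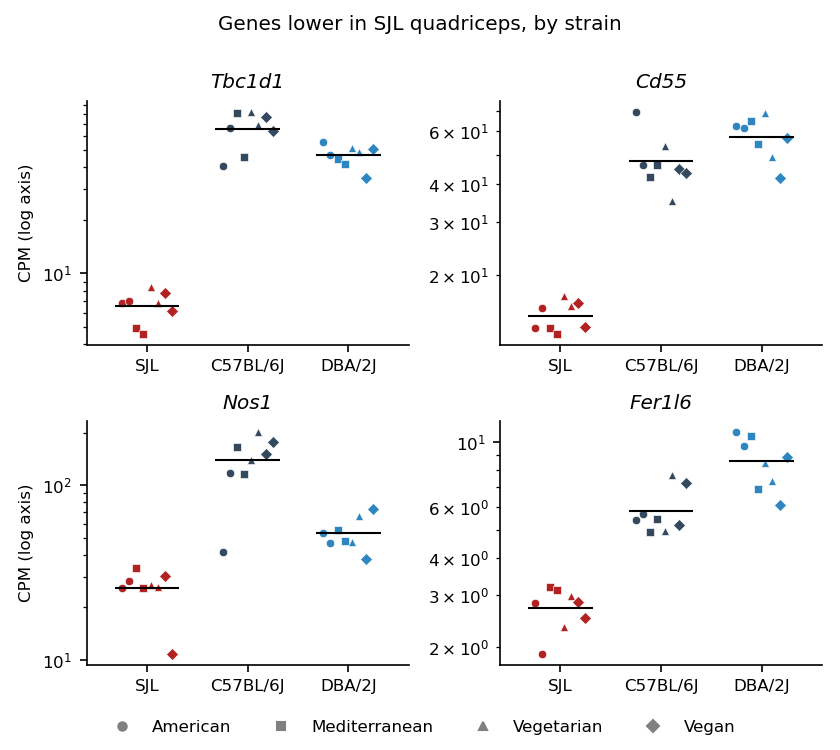
CPM of Tbc1d1, Cd55, Nos1 and Fer1l6 in each quadriceps library, by strain; shapes give the diet and lines the strain means (n = 8 each). All 8 SJL libraries lie below all 16 controls for each gene.

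Of 15 genes known to vary between these strains 5 were higher and 7 lower (33.3% and 46.7%, against 19.3% and 16.3% of all genes). Nnt, a mitochondrial transhydrogenase of which C57BL/6J lacks a part, averaged 45.8 ± 7.06 CPM in SJL, against 15.8 ± 4.69 in C57BL/6J and 47.3 ± 5.86 in DBA/2J. Pttg1, or securin, averaged 2.22 ± 0.622 CPM in SJL, against 51.4 ± 21.7 in C57BL/6J and 1.55 ± 0.282 in DBA/2J. Both controls thus differed widely, and SJL lay near DBA/2J. Glo1, a glyoxalase, averaged 88.9 ± 17.2 CPM in SJL, against 181 ± 91.1 in C57BL/6J and 285 ± 142 in DBA/2J, and stood at 764 CPM in liver. Its log2 difference was -1.34, and -0.84 without the 6 libraries with most Alb (adjusted p = 4.37e-06). Sp110, an interferon-induced nuclear protein, averaged 8.12 ± 1.45 CPM in SJL, against 2.55 ± 0.501 in C57BL/6J and 2.62 ± 0.388 in DBA/2J, with no overlap.

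A change of the SJL difference with diet was not detected. In a model of all 12 combinations of strain and diet edgeR called 0 of 17941 genes (0%), with 1029 at an unadjusted p under 0.05 and a smallest adjusted p of 0.824, and limma on TPM also called 0. With 2 mice in each combination, only differences well beyond the spread between mice could be seen. Without SJL mouse 63, which leaves mouse 64 as the one SJL mouse on the vegan diet and assumes that it varies like the others, 1050 genes were called, and without any other single library 0.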

How the data were processed

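Per the labels' protocols, RNA was extracted from frozen quadriceps with TRIzol and RNeasy Micro columns, and TruSeq stranded mRNA libraries were sequenced as read pairs on a NovaSeq6000, per the study's design text. Per the design text and the submitters' processing notes, the authors used FastQC, Trim Galore, HISAT2 on GRCm39 and HTSeq. Annotation, strand setting and versions: not given in the sources used here. For each gene the authors deposited estimated counts, with multiply placed reads split between positions (74.4% of non-zero values were whole within 1e-06), and a TPM table, used for 1 alternative.

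Counts were rounded, filtered with filterByExpr by strain (minimum count 10, minimum total 15), scaled by TMM and fitted with edgeR 4.0.16 in R 4.3.3, with strain and diet as terms, robust dispersion and Benjamini-Hochberg adjustment over all genes tested. CPM were computed from the deposited counts. The diet test used the 12 combinations of strain and diet. The rule for named genes took 12 rises and 12 falls with a mean of at least 2 CPM, called against both strains without overlap, up to 4 members of each of 34 lists, and known strain variants; all other gene names were picked with their values known. Some genes that the rule gave are not reported here. Members and lists were chosen with earlier results of these data known. Names came from GENCODE vM39 (56236 of 56980 identifiers). The scripts were tested on simulated data. Alternatives were RLE factors, DESeq2 1.42.0, other filters and models, limma 3.58.1 on log2(TPM + 1), the 6 libraries over the Alb limit left out, and each library left out in turn.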

Additional observations from a re-analysis of the deposited data

Results flagged for a closer look

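Among 429 groups of 8 libraries tested, 43 held a library that stood far from the other 7 of its strain on log2(CPM + 0.5), and chance alone gives about 1 in 20. SJL mouse 64, on the vegan diet, was high for Glo1 (128 CPM), Il3ra (6.43), Mir692-2 (47.1), Rpl26 (60.2), Mcpt4 (23.6), Fabp4 (618), Cfd (205), Cycs (444) and Mt1 (91.6), and low for Trim12c (2.59) and Nos1 (10.8). SJL mouse 54, on the Mediterranean diet, was low for Sp110 (5.29 CPM), Plac8 (2.22), Ly6c2 (0.904), Ccl5 (0.543), Oas2 (4.39) and Oasl2 (5.79), genes of interferon, monocytes and T cells. SJL mouse 50 was low for Ucp1 (59.8 CPM) and Actc1 (374), and SJL mouse 63 was low for Plk1 (0.436). SJL mouse 57 was high for Myh3 (101 CPM).

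Among the controls C57BL/6J mouse 1 was low for Nos1 (41.7 CPM), Myh11 (19.8) and Ulk1 (77.8) and high for Cycs (460). C57BL/6J mouse 7 was high for Fcgr1 (3.35 CPM), mouse 8 for Cd4 (2.99), and mouse 12 for Ly6c2 (3.05), Nkg7 (0.447) and Top2a (2.52). DBA/2J mouse 33 was high for Itgax (3.94 CPM), Col16a1 (14.7) and Myh3 (115). DBA/2J mouse 34 was high for the brown fat genes Ucp1 (506 CPM) and Dio2 (9.00) and for S100b (15.4). DBA/2J mouse 38 was high for Mir692-2 (15.4 CPM) and Actc1 (144). DBA/2J mouse 45, which held the most Alb of all 24 libraries at 42.8% of the liver mean, was high for Glo1 (620 CPM) and Plac8 (3.05) and low for Cirpil (4.05), Lum (26.1) and Chrna1 (9.15). The part of other tissue in these values was not tested.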

How the results depend on the processing

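Over all libraries 3462 genes were higher and 2919 lower in SJL, and 1983 were higher and 1464 lower than in both strains. With limma on log2(TPM + 1) 5745 were higher and 950 lower, and 279 lower than in both strains. With log2 Alb and Ucp1 as covariates, of which Ucp1 largely follows strain, 1380 were lower, 1261 higher than in both and 620 lower than in both. With only the 14 libraries lowest in Alb, a setting chosen after seeing the data, 626 were higher than in both and 273 lower, among fewer libraries. Leaving out 1 library gave 3056 to 3694 higher and 2420 to 3204 lower genes, 1724 to 2183 higher than in both, and 875 (without SJL mouse 63; 912 without SJL mouse 54) to 1676 lower than in both. The diet test gave 0 to 1050 genes. Signs turned in single genes: with the covariates Ucp1 -0.45, S100b -0.19 and Myh7 -0.21 on the log2 scale; with the 14 libraries Alb 0.77, Hc 0.20, Cd5l 0.20, Il3ra -0.13, S100b -0.067, Kng2 0.22, Apoc3 0.59, Apoh 0.57, Cyp2e1 0.34 and Serpina1a 0.47; on TPM Ide 0.032; and without SJL mouse 50 Myh7 -0.033 (0.507 without C57BL/6J mouse 12, the other end of its range). Ucp1 is itself a covariate, and the 14 libraries were picked by Alb. The turns of Ucp1, Alb and the liver markers are thus partly built in. The cause of the other turns was not tested. With RLE factors, the filter by the 12 combinations or A/J added, all 143 single genes compared kept their direction and their side of the threshold. Without the 6 libraries 131 did, with the covariates 121 and over the 14 libraries 116. With limma on TPM, which did not test all of these genes, 115 did. In these settings, in this order, 10, 19, 15 and 16 genes kept their direction but lost their call. No paired analysis was possible because mouse numbers are not shared between strains or diets and each mouse gave 1 quadriceps library. Depth of 20.04 M counts or more leaves genes near the count minimum of 10 least certain.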
